A study of Mus musculus with 207 samples.

Results

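Jejunal gene expression was compared between mice fed CAS with fat level 55 (FAT-55) and mice fed CAS with fat level 20 (FAT-20). All libraries of jejunum with these diet labels were taken, 11 per group and 22 of the 207 samples in the series. The mice were C57BL/6, and the protein label of both groups was CAS at level 30. CAS stands for casein and WPI, the other protein of the series, for whey protein isolate, a reading not given in the labels. The labels give no unit for the levels and no sex, age, feeding time or batch. Total RNA of each piece was sequenced, and reads were counted per gene. The middle level (FAT-40, 12 libraries), the same levels on WPI (12 each) and the livers of the same 22 mice stand beside the comparison where they bear on it. The series title asks how protein alters what dietary fat does to weight gain and tissues.

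The jejunum absorbs most dietary fat. Fatty acids and monoglycerides enter enterocytes, the absorptive cells, are rebuilt into triglyceride on the endoplasmic reticulum and leave in chylomicrons or wait in lipid droplets. Part of the fatty acid is burned in mitochondria and peroxisomes, whose enzyme genes are known targets of the fatty acid sensor PPAR alpha. Vitamin A and its precursor beta-carotene take the same route, and crypts beside the villi hold stem cells and antimicrobial Paneth cells.

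Libraries held 20.1 to 23.2 M reads on genes at FAT-20 and 22.6 to 23.3 M at FAT-55. Levels are counts per M (CPM) of the library size after TMM scaling, not corrected for gene length, so they are compared between libraries and not between genes. Differences are log2 fold changes ± standard error, FAT-55 minus FAT-20, with p-values adjusted over all 16992 genes tested. Genes with an adjusted p under 0.05 were called, 4711 in all (27.7%), of which 2447 were higher (14.4%) and 2264 lower (13.3%) at FAT-55. The median over all genes tested was -0.01, and 416 called genes differed more than 2-fold. Identifiers without their last digit form 4 stems per group with no stem in both, and the labels do not say what a stem is. The consensus correlation within a stem was 0.114, and the standard errors and adjusted p given here leave it out. With the stem as random effect 3897 genes were called, and with sums per stem 3383. Whatever all stems of a group share cannot be told apart from the diet.

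The pieces held the defining genes of enterocytes, which summed to 27600 to 46920 CPM at FAT-20 and 32070 to 50160 CPM at FAT-55. The 11 pancreatic acinar markers summed to 3.90 to 7.78 CPM at FAT-20 and 6.04 to 46.4 CPM at FAT-55, with Prss1 at 0 in both groups, and their part in the results was not tested. The pieces also differed in the marker RNA of fat cells and smooth muscle. The 7 fat cell markers summed to 3.57 to 170 CPM at FAT-20 and 0.181 to 24.2 CPM at FAT-55, and 5 of 7 fell. Their mean log2 level overlapped between the groups only through FAT-55 replicate 8 (1.10), above the lowest FAT-20 library (-0.998) where the median at FAT-55 was -2.80. The 10 smooth muscle markers summed to 908 to 1685 CPM and 387 to 1321 CPM, and 8 fell. None of these markers was at 0 throughout. In bulk tissue, fewer cells of a type and less RNA per cell cannot be told apart, and the part of this shift in the results below was not tested. With both marker scores as covariates 1028 genes were called (6.05%), 582 higher (3.43%) and 446 lower (2.62%). Among the 5 libraries per group whose smooth muscle score lay between 5.62 and 6.10, a range chosen after the scores were seen, 236 were called (1.35%), 105 higher (0.599%) and 131 lower (0.748%). A score that differs between the groups takes part of the diet term with it, and the second fit has fewer libraries. The second fit also matches smooth muscle only. Its fat cell scores ran from -0.998 to 1.24 at FAT-20. At FAT-55 they ran from -2.94 to -2.31 apart from replicate 8 (1.10).

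**Figure D1:**
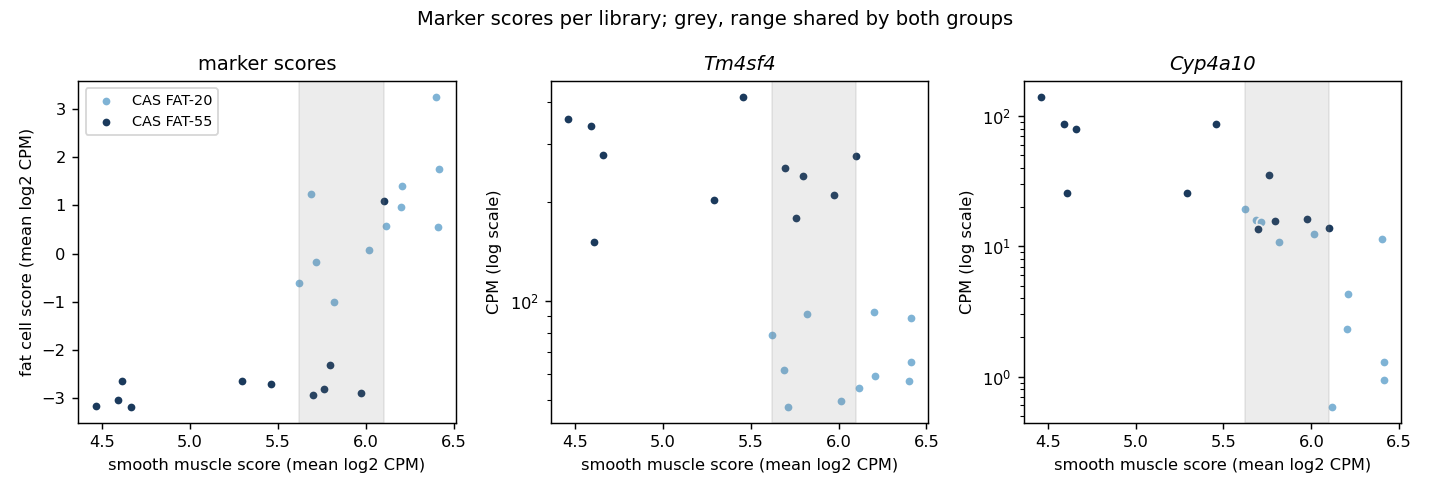
Left, the smooth muscle score against the fat cell score (each the mean log2 CPM of the markers) in the 22 libraries, 1 point per library. Middle and right, Tm4sf4 and Cyp4a10 in CPM on a log axis against the smooth muscle score. Within the grey shared range, from 5.62 to 6.10, Tm4sf4 still separates the groups and Cyp4a10 does not.

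Sequences of 2 loci come before the values, because the smallest adjusted p in the comparison belonged to a microRNA gene, and because a carotene gene of the retinoid list moved against most of its called members. Mir194-1 (chr1:185313319-185313385, plus strand, GRCm38.p6) lies in the antisense gene 2010103J01Rik and within the bounds of Iars2, which is read from the other strand. Its hairpin is shown with the mature 5p arm in capitals, and the mature arm with its seed, bases 2 to 8, in capitals (RefSeq).
Mir194-1 hairpin: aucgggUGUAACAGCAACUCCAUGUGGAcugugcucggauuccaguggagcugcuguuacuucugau
mmu-miR-194-5p: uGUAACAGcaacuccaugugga

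The promoter of Bco1 is shown from 150 to 31 bases before its RefSeq start (chr8:117095715-117095834, plus strand, GRCm38.p6). Capitals mark 1 match, 56 to 44 bases before the start, to the reverse complement of AGGTCANAGGTCA, a direct repeat with a spacer of 1 base to which nuclear receptors are known to bind.
Bco1 promoter: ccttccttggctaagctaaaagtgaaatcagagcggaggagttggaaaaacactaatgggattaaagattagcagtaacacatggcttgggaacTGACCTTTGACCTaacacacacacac

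The repeat was sought on both strands from 250 bases before to 50 after each start, and 13 of 32851 such windows held it (0.0396%), 1 for each of 13 genes. Of those genes 7 were tested. Bco1 fell, Igsf23, named after its value was seen, rose (0.61 ± 0.13, adjusted p = 0.000252; 0.0783 with both scores) and 5 did not pass. With 1 higher and 1 lower, they were called about as often as all genes (14.4% higher and 13.3% lower). None of the lists of fatty acid uptake, mitochondrial oxidation, peroxisomal oxidation, cholesterol synthesis and defence had a window with it. AGGTCA alone, which the repeat contains, was in windows of 18.1% of all genes. It was in those of 27.3% of the uptake genes (3 of 11), 14.3% of the mitochondrial (3 of 21) and 26.7% of the peroxisomal oxidation genes (4 of 15). For cholesterol synthesis the share was 13.3% (2 of 15) and for defence 19.0% (4 of 21). The sterol element TCACNCCAC stood in 1 gene of each of these 5 lists (4.76% to 9.09% of the genes with a window, 6.67% for cholesterol synthesis, and 1.44% of all genes), and an NF-kB motif in none of the 21 defence genes (0.174% of all genes). A match is a description of letters, not a binding site.

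Genes that bring fatty acids into the enterocyte were mostly higher at FAT-55. Of 12 genes of uptake and activation 8 rose and 2 fell, with a median of 0.43. Cd36, a fatty acid receptor of the enterocyte surface (ENSMUSG00000002944, chromosome 5, 17781690 to 17888801), lay between 61.9 and 173 CPM at FAT-20, with a median of 115, and between 162 and 330.4 CPM at FAT-55, with a median of 249. The groups met only at their edges, and the median of FAT-20 was exceeded by all 11 libraries (1.03 ± 0.17, adjusted p = 7.35e-06). Fabp1, which carries fatty acids through the cytosol, lay between 926 and 2616 CPM (median 2194) and between 1754 and 5664 CPM (median 3429.8). It rose by 0.90 ± 0.19 (adjusted p = 0.000379), with 2 of 11 libraries below the median of FAT-20, and missed the threshold with both scores (0.62, adjusted p = 0.0755). Slc27a4, a fatty acid transporter and acyl-CoA synthetase, rose, with every library over the median of FAT-20 (0.61 ± 0.10, adjusted p = 1.4e-05).

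The 2 that fell were Slc27a1, a transporter best known from muscle and fat cells, and Acsl4, an acyl-CoA synthetase. Slc27a1 fell by 0.48 on the log2 scale (adjusted p = 0.00161) and stood at -0.03 with both scores (adjusted p = 0.921). Acsl4 was at -0.28 ± 0.10 (adjusted p = 0.0255) and did not pass without FAT-20 replicate 7 (adjusted p = 0.0531). Scarb1, a receptor for cholesterol and carotenoids, was at 0.03 ± 0.31 (adjusted p = 0.953). With both scores 3 of the 12 uptake genes rose, Cd36 (0.86, adjusted p = 0.00134) and Slc27a4 (0.51, adjusted p = 0.0125) among them, and in the shared smooth muscle range none passed.

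Rebuilding of triglyceride followed the same direction with smaller differences. Of 13 genes 7 rose and 1 fell, with a median of 0.26. Lpcat3, which puts polyunsaturated fatty acids into membrane phospholipid, lay between 207 and 305 CPM (median 240.5) and between 283 and 391 CPM (median 329). None at FAT-55 was under the median of FAT-20, and the rise of 0.41 ± 0.07 (adjusted p = 4.62e-06) held with both scores (0.41, adjusted p = 0.00109) and in the shared range (0.36, adjusted p = 0.0441). Lpcat3 was the 1 member called in each of those 2 fits. Lpin2, a phosphatidate phosphatase, and Gpat3, a glycerol-phosphate acyltransferase, rose by 0.46 ± 0.13 (adjusted p = 0.00705) and 0.31 ± 0.08 (adjusted p = 0.00357). Gpam, the mitochondrial acyltransferase, was at -0.20 ± 0.07 (adjusted p = 0.0282), a call lost without FAT-20 replicate 7 (adjusted p = 0.105). Dgat2, which makes triglyceride, varied from 192 to 837 CPM at FAT-20 and from 236 to 1022 CPM at FAT-55 and did not pass (0.60 ± 0.33, adjusted p = 0.166).

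Chylomicron and lipid droplet genes gave 11 higher and 0 lower of 17, with a median of 0.30, of which 1 rose with both scores and none passed in the shared range. Apoa4, an apolipoprotein that enterocytes secrete on chylomicrons (ENSMUSG00000032080, chromosome 9, 46240696 to 46243459), ran from 939 to 2029 CPM with a median of 1134 and from 1839 to 4728 CPM with a median of 2392. The top of the FAT-20 libraries overlapped the bottom of FAT-55, and all 11 exceeded its median. The rise of 0.97 ± 0.23 (adjusted p = 0.00114) missed the threshold with both scores (0.68, adjusted p = 0.115). The droplet coat Plin2 rose by 0.54 ± 0.10 (adjusted p = 4.62e-05), also with both scores (0.47, adjusted p = 0.00817), and Surf4, a receptor for secreted cargo, by 0.28 ± 0.07 (adjusted p = 0.00159). The structural proteins of lipoproteins did not pass, with Apob at 0.28 ± 0.14 (adjusted p = 0.122) and Apoa1 at 0.13 ± 0.16 (adjusted p = 0.571).

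Among 16 genes of lipolysis 8 rose and 2 fell (median 0.36), and 7 rose with both scores. Lipa, the lysosomal acid lipase, lay between 45.8 and 80.2 CPM (median 59.4) and between 69.5 and 160.0 CPM (median 138). The ranges overlapped narrowly, and Lipa rose by 0.99 ± 0.15 (adjusted p = 3.65e-06). The carboxylesterases Ces2c and Ces2a, lipid and drug hydrolases with similar copies between which reads may be split, rose by 1.05 ± 0.14 (adjusted p = 3.19e-07) and 1.23 ± 0.23 (adjusted p = 7.01e-05), of which Ces2a missed the threshold with both scores (0.72, adjusted p = 0.0943). Lpl, the lipoprotein lipase made by fat and muscle cells, was lower (-1.33 ± 0.47, adjusted p = 0.0267), was called higher with both scores (1.42, adjusted p = 0.00479), and was not called without FAT-20 replicate 7 (-0.72, adjusted p = 0.234). That library had the highest fat cell score, 3.26.

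**Figure D2:**
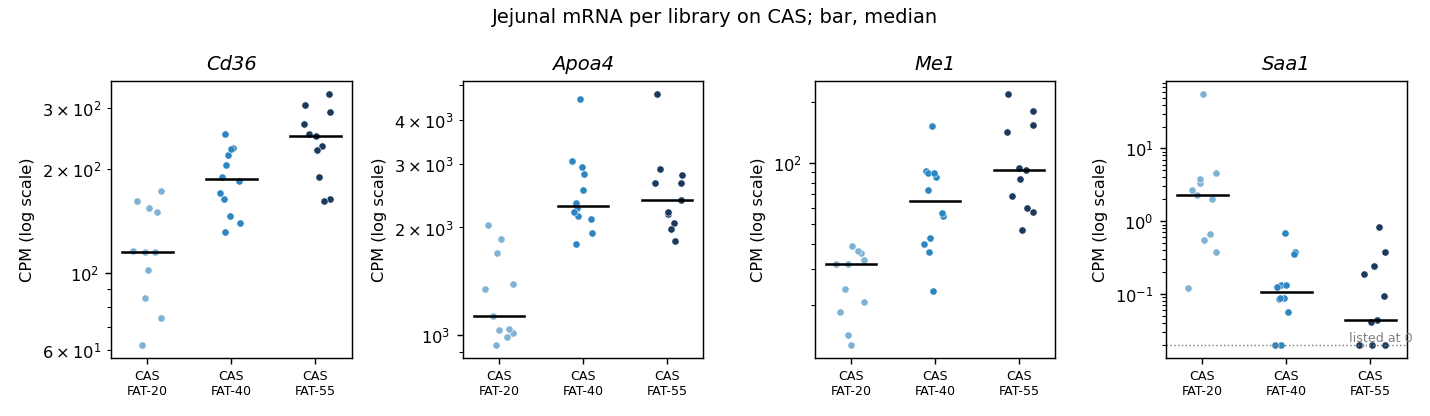
Cd36, Apoa4, Me1 and Saa1 in CPM on log axes in each library on CAS, by fat level. Points are libraries, bars are medians, and the dotted line marks libraries listed at 0. Me1 does not overlap between FAT-20 and FAT-55, and Saa1 falls from a median of 2.32 to 0.0444 CPM.

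Fatty acid oxidation genes rose and none fell in either compartment. Of 27 mitochondrial genes 18 rose, with a median of 0.40, and of 20 peroxisomal and omega-oxidation genes 17 rose, with a median of 0.60. Hsd17b4, the bifunctional enzyme of peroxisomal oxidation, lay between 160.4 and 337 CPM (median 268) and between 296 and 584 CPM (median 451). Few libraries overlapped, and the rise was 0.80 ± 0.11 (adjusted p = 4.11e-07). Cat, the peroxisomal catalase, and Crot, which moves shortened acyl groups to carnitine, rose by 0.84 ± 0.13 (adjusted p = 3.05e-06) and 0.78 ± 0.13 (adjusted p = 6.07e-06). All 3 rose with both scores, with adjusted p = 0.00204, 0.00406 and 0.00667.

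Cyp4a10, a fatty acid omega-hydroxylase, had the largest difference among peroxisomal list members with at least 5 CPM on average over the 22 libraries. Its level ran from 0.582 to 19.5 CPM at FAT-20 (median 10.8) and from 13.7 to 141 CPM at FAT-55 (median 25.6). The rise of 2.51 ± 0.48 (adjusted p = 7.53e-05) held with both scores (2.17, adjusted p = 0.00469) and stood at 0.36 in the shared smooth muscle range (adjusted p = 0.829). The 4 libraries with the highest Cyp4a10, 79.4 to 141 CPM, all had smooth muscle scores under the shared range. Acot3, a peroxisomal thioesterase, was at 0 to 0.129 CPM at FAT-20 and 0.123 to 1.39 CPM at FAT-55 (adjusted p = 2.12e-05).

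In mitochondria, Acads and Acadvl, the dehydrogenases for short and very long chains, rose by 0.42 ± 0.07 (adjusted p = 1.35e-05) and 0.45 ± 0.07 (adjusted p = 9.08e-06). Bdh1, a ketone body enzyme, rose by 0.40 ± 0.06 (adjusted p = 4.39e-06). Ppara itself rose by 0.74 ± 0.18 (adjusted p = 0.00183) but not with both scores (0.26, adjusted p = 0.523). Cpt1a, which controls fatty acid entry into mitochondria, lay between 143 and 199 CPM and between 146 and 226 CPM and did not pass (0.12 ± 0.07, adjusted p = 0.18). With both scores 11 of the 27 mitochondrial and 7 of the 20 peroxisomal genes rose, and none passed in the shared range, where the medians were 0.07 and 0.14.

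The nuclear genes of the respiratory chain and ATP synthase moved little and together. Of 75 members 72 rose and none fell, with a median of 0.27, and 0 passed a test against a fold of 1.2. By complex, 34 of 36 of complex I, 13 of 13 of complexes II and III, 11 of 11 of complex IV with cytochrome c and 14 of 15 of ATP synthase rose. Examples are Ndufb3 (0.38 ± 0.08, adjusted p = 0.000269), Uqcr11 (0.39 ± 0.08, adjusted p = 0.000434), Cox6b1 (0.31 ± 0.07, adjusted p = 0.000994) and Atp5f1 (0.30 ± 0.07, adjusted p = 0.00058). With both scores 6 of 75 rose (median 0.22) and none did in the shared range (median 0.15).

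Transcripts encoded by mitochondrial DNA had the same median, 0.27, but only 1 of 13 was called. That was mt-Co3 (0.36 ± 0.13, adjusted p = 0.0278), and leaving out any 1 of FAT-20 replicates 1, 4, 8 or 11 or FAT-55 replicates 2, 4, 6 or 11 ended its call (0.0508 to 0.0643). The abundant mt-Co1, a catalytic subunit of complex IV, spread from 19303 to 29367 CPM and from 20017 to 40153 CPM (0.24 ± 0.12, adjusted p = 0.123). In the citric acid cycle 11 of 20 rose and 1 fell (median 0.17), led by Mdh2, malate dehydrogenase (0.62 ± 0.10, adjusted p = 1.29e-05). Of 27 genes of glycolysis and gluconeogenesis 11 rose and 2 fell (median 0.25), Aldoa, the muscle-type aldolase, among the former (0.37 ± 0.08, adjusted p = 0.000181).

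**Figure D3:**
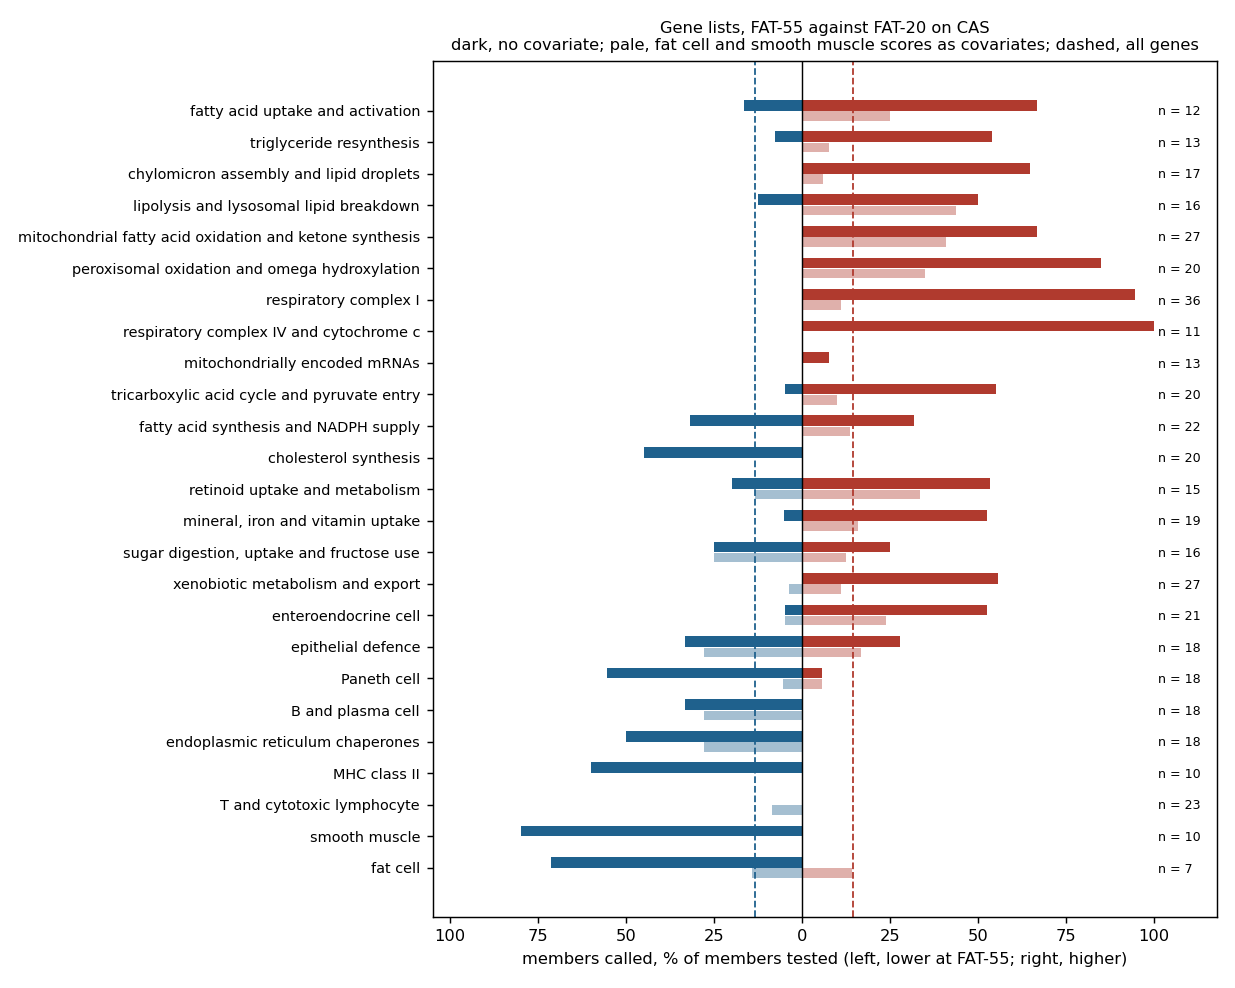
Members called lower (blue, left) or higher (red, right) at FAT-55 as a percent of the members tested in 25 lists. Dark bars are without covariates, pale bars with both marker scores, and dashed lines show all genes, 13.3% lower and 14.4% higher. Peroxisomal oxidation, respiratory complexes and chylomicron genes extend only to the right.

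Fatty acid synthesis did not move one way. Of 22 genes 7 rose and 7 fell, with a median of -0.09. Me1, the cytosolic malic enzyme that supplies NADPH (ENSMUSG00000032418, chromosome 9, 86581371 to 86695953), lay between 12.7 and 39 CPM (median 31.7) and between 46.8 and 219.7 CPM (median 91.9). No FAT-55 library reached down to any FAT-20 library. The rise of 2.003 ± 0.25 (adjusted p = 3.51e-08) was 1.96 with both scores (adjusted p = 1.32e-06) and 0.999 in the shared range (adjusted p = 0.102). Elovl6, which lengthens saturated fatty acids, rose by 0.52 ± 0.10 (adjusted p = 5.41e-05) with ranges that did not overlap, 70.4 to 93.9 and 94.05 to 146 CPM, though their edges lay close. Acacb, the acetyl-CoA carboxylase that restrains oxidation, was lower (-0.77 ± 0.16, adjusted p = 0.000237; -0.43, adjusted p = 0.184, with both scores). Scd1, a desaturase abundant in fat cells, lay between 20.3 and 736 CPM at FAT-20 and 4.62 and 55.3 CPM at FAT-55 (-2.47 ± 0.54, adjusted p = 0.000519). It was at -1.55 without FAT-20 replicate 7 and at 1.05 with both scores (adjusted p = 0.199).

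Cholesterol synthesis genes fell or did not pass. Of 20 enzymes 9 fell and 0 rose, with a median of -0.30. Sqle, the squalene epoxidase, ran from 23.1 to 74.8 CPM (median 36.4) and from 12.3 to 33.2 CPM (median 19), with all FAT-55 libraries below the FAT-20 median (-0.92 ± 0.20, adjusted p = 0.000632). Fdps, which makes farnesyl diphosphate, and Lss, which closes the sterol rings, were at -0.99 ± 0.24 (adjusted p = 0.0014) and -0.60 ± 0.14 (adjusted p = 0.00083). With both scores none of the 20 was called (Sqle -0.65, adjusted p = 0.112), and the median was -0.19. Of 15 genes of sterol uptake and control 2 rose and 4 fell. Npc1l1, the sterol importer of the brush border, fell from a median of 1152 to 754 CPM, with every FAT-55 library below the FAT-20 median (-0.49 ± 0.09, adjusted p = 9.76e-05). Those that rose were Nr1h3, the sterol sensor LXR alpha (0.44 ± 0.08, adjusted p = 7.31e-05), and Abcg8, which returns sterols to the lumen (0.42 ± 0.14, adjusted p = 0.0167). With both scores Nr1h3 rose (0.34, adjusted p = 0.0458), Npc1l1 fell (-0.40, adjusted p = 0.0346) and no other of the 15 passed.

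Vitamin A genes changed in both directions. Of 15 genes 8 rose and 3 fell, with a median of 0.32, and 5 rose and 2 fell with both scores. Enterocytes cut beta-carotene to retinal with BCO1, hold retinol on RBP2 and esterify it with LRAT, while retinoic acid induces the homeobox protein ISX, a known repressor of Bco1 and Scarb1. Bco1 (ENSMUSG00000031845), whose promoter is printed above, lay between 17.8 and 376 CPM at FAT-20 (median 217) and between 2.72 and 71.6 CPM at FAT-55 (median 13.3). Every FAT-55 library was below the FAT-20 median, and the lowest FAT-20 library lay within the FAT-55 range. The fall of -3.12 ± 0.54 (adjusted p = 2.02e-05) was -4.62 with both scores (adjusted p = 1.06e-06) and -3.30 in the shared range (adjusted p = 0.0167).

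Isx, named after its values were seen, lay between 48.1 and 95.1 CPM (median 54) and between 60.1 and 116 CPM (median 88.4). Its rise of 0.59 ± 0.11 (adjusted p = 7.59e-05) was 0.59 also in the shared range (adjusted p = 0.0319). Aldh1a1, which oxidises retinal to retinoic acid, ran from 89.1 to 439.9 CPM (median 172) and from 400.2 to 1546 CPM (median 956). Its groups overlapped at 1 edge (1.93 ± 0.25, adjusted p = 8.96e-08), and with both scores it stood at 1.22 (adjusted p = 0.00314). Rbp2, also named after its values were seen, did not overlap, with 933 to 2258 CPM against 2261 to 4910.2 CPM (1.13 ± 0.18, adjusted p = 3.99e-06). Retsat, which saturates retinol, and Rdh7, a retinol dehydrogenase, rose by 1.26 ± 0.17 (adjusted p = 3.99e-07) and 1.02 ± 0.16 (adjusted p = 3.55e-06). Aldh1a2, the related enzyme of stromal and dendritic cells, was lower (-0.56 ± 0.10, adjusted p = 4.07e-05), and Lrat did not pass (0.07 ± 0.11, adjusted p = 0.666).

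**Figure D4:**
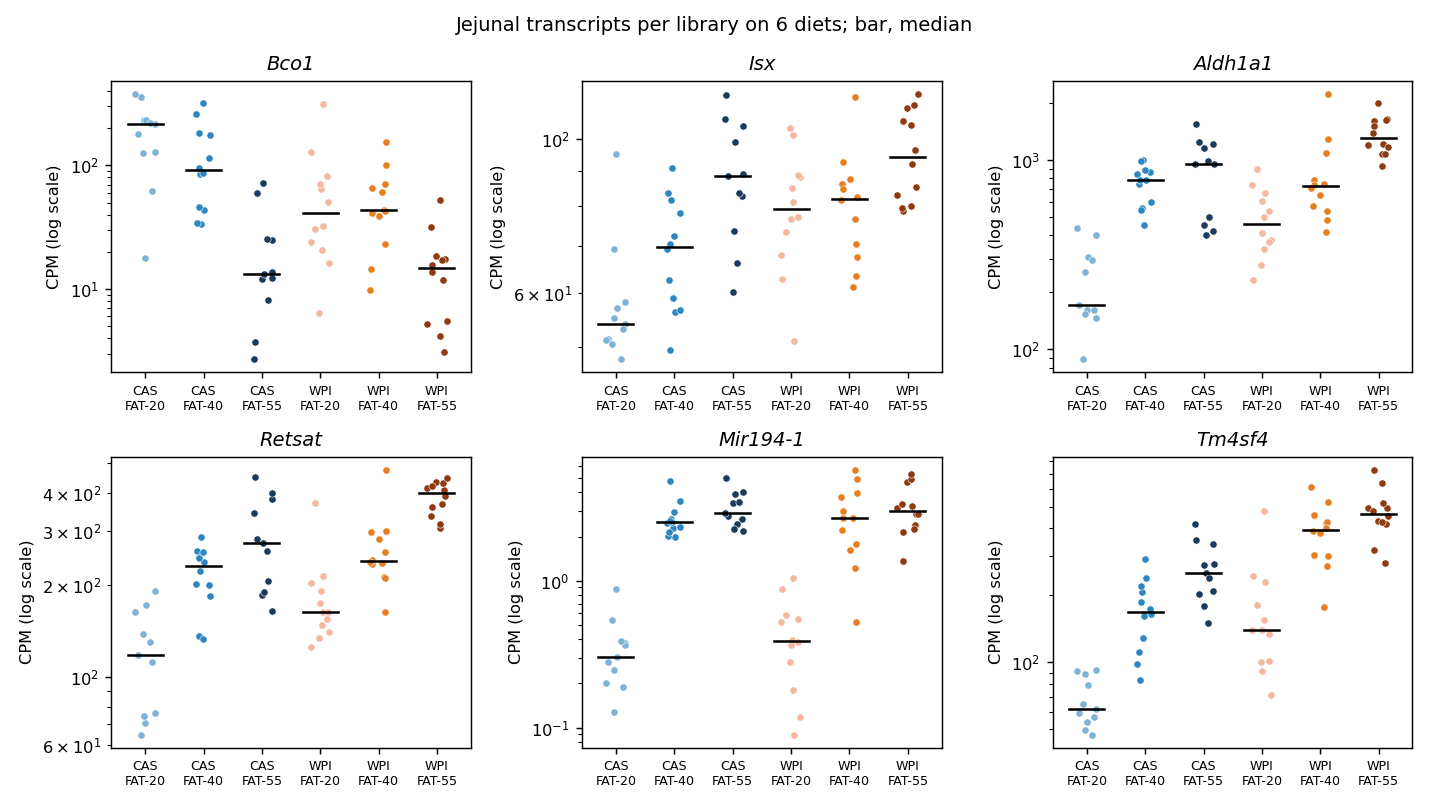
Bco1, Isx, Aldh1a1, Retsat, Mir194-1 and Tm4sf4 in CPM on log axes in each jejunal library of the 6 diets. Points are libraries and bars medians. The median of Bco1 goes from 91.4 at FAT-40 to 13.3 at FAT-55 on CAS and from 43.4 to 14.7 on WPI, and that of Mir194-1 from 0.301 at FAT-20 to 2.5 at FAT-40 on CAS.

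Bco1 was also the 1 gene outside immunoglobulin segments and the phospholipase Pla2g4c that differed between FAT-55 and FAT-40 on CAS, a comparison that shares the FAT-55 libraries and called 5 genes (0.0294%), 2 higher (0.0118%) and 3 lower (0.0177%; 1103 at an unadjusted p under 0.05, 16 by DESeq2). Its median went from 217 at FAT-20 to 91.4 at FAT-40 and 13.3 CPM at FAT-55, with -0.67 ± 0.49 for FAT-40 against FAT-20 (adjusted p = 0.324) and -2.46 ± 0.52 for FAT-55 against FAT-40 (adjusted p = 0.0492). The others were Igkv2-112 (-4.38 ± 0.84) and Ighv3-4 (4.81 ± 0.99) and, named after their values were seen, Pla2g4c (3.25 ± 0.70) and Ighv5-17 (-2.43 ± 0.47). Sums per identifier stem called none of the 5.

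Of 19 genes for minerals, iron and vitamins 10 rose and 1 fell (median 0.31), and 3 rose with both scores. S100g, the calcium-binding calbindin-D9k, lay between 0.291 and 1.32 CPM (median 0.527) and between 1.16 and 17.4 CPM (median 3.91). The groups overlapped slightly, and the rise of 2.92 ± 0.31 (adjusted p = 4.84e-10) was 1.77 in the shared range (adjusted p = 0.0101). Flvcr2, a haem and choline transporter, did not overlap, with 1.18 to 4.24 and 4.8 to 10.3 CPM (1.75 ± 0.23, adjusted p = 1.79e-07). Slc46a1, the folate importer, rose by 1.53 ± 0.29 (adjusted p = 8.15e-05), and Cybrd1, the ferric reductase of the brush border, was lower (-0.73 ± 0.20, adjusted p = 0.00513; -0.64, adjusted p = 0.118, with both scores). Cyp2r1, a vitamin D 25-hydroxylase outside the list and named after its values were seen, did not overlap either (0.596 to 1.38 and 1.45 to 3.28 CPM, adjusted p = 2.06e-06).

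Sugar genes split. Of 16 members 4 rose and 4 fell with a median of -0.02, and with both scores 2 rose and 4 fell. Slc5a1, the sodium glucose cotransporter SGLT1, lay between 2838 and 5427 CPM (median 4065) and between 1284 and 3578 CPM (median 2509). All FAT-55 libraries were under the FAT-20 median (-0.65 ± 0.16, adjusted p = 0.00196), and the fall was -0.98 with both scores (adjusted p = 0.00194) and -0.89 in the shared range (adjusted p = 0.0498). Sis, the sucrase-isomaltase, was also lower, in 10 of 11 libraries (-0.45 ± 0.13, adjusted p = 0.00872). Slc2a2, the transporter GLUT2, did not pass (-0.40 ± 0.20, adjusted p = 0.119), but did with both scores (-0.95, adjusted p = 0.0124), in the shared range (-1.20, adjusted p = 0.0145) and without FAT-55 replicate 6 (-0.52, adjusted p = 0.0493). Treh, the trehalase, and Slc5a4b, a relative of SGLT1, rose by 0.90 ± 0.16 (adjusted p = 2.52e-05) and 0.89 ± 0.14 (adjusted p = 6.9e-06).

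Peptidase and amino acid transporter genes were called about as often as all genes, with 3 of 22 higher and 3 lower (median 0.00). Slc6a20a, a proline transporter, rose by 1.03 ± 0.16 (adjusted p = 3.99e-06), Slc1a5, a glutamine transporter, fell by 0.48 (adjusted p = 0.000972), and Anpep, the abundant aminopeptidase N, was at 0.04 ± 0.11 (adjusted p = 0.814). Of 24 targets of ATF4, the factor of the amino acid shortage response, 2 rose and 11 fell (median -0.12), and 1 rose and 2 fell with both scores. Psat1 of serine synthesis was at -0.68 ± 0.15 (adjusted p = 0.00046), Vldlr at -0.73 ± 0.13 (adjusted p = 3.5e-05), and Sesn2, a leucine sensor, at 0.25 ± 0.08 (adjusted p = 0.0104). Psat1 and Vldlr did not pass with both scores (adjusted p = 0.191 and 0.0759).

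Genes of xenobiotic metabolism rose in 15 of 27 cases and none fell (median 0.52). With both scores 3 rose and 1 fell. Ugt2b5, a glucuronosyltransferase with close copies, lay between 3.99 and 38.7 CPM (median 8.1) and between 13.9 and 193 CPM (median 75.6; 2.40 ± 0.39, adjusted p = 5.94e-06). Cyp2j6, an epoxygenase, rose by 1.17 ± 0.17 (adjusted p = 1.38e-06). Akr1c19, an aldo-keto reductase outside that list and among the largest rises, went from a median of 64.2 to 368 CPM (2.39 ± 0.38, adjusted p = 5.18e-06). In the shared range Ugt2b5 stood at 0.38 (adjusted p = 0.771) and Akr1c19 at 1.07 (adjusted p = 0.343).

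Defence genes diverged within the same family. Of 18 epithelial defence genes 5 rose and 6 fell (median -0.25), and 3 rose and 5 fell with both scores. Reg3g, a lectin that kills Gram-positive bacteria, ran from 174 to 6844 CPM (median 1612) and from 33 to 1554 CPM (median 155). All FAT-55 libraries lay below the FAT-20 median (-2.61 ± 0.56, adjusted p = 0.000404), and the difference was -3.35 without FAT-55 replicate 11. Reg3a, a neighbouring family member, moved the other way, from 42.5 to 225 CPM (median 103) to 175 to 487 CPM (median 307; adjusted p = 2.95e-06). Reads could be split between similar Reg3 and Saa copies. Saa1, an acute phase protein that epithelium makes on contact with bacteria (ENSMUSG00000074115, chromosome 7, 46740497 to 46742980), lay between 0.12 and 56.6 CPM (median 2.32) and between 0 and 0.826 CPM (median 0.0444). It fell by 5.35 on the log2 scale (adjusted p = 4.11e-07), by 3.58 without FAT-20 replicate 1 and by 6.07 without FAT-55 replicate 11, and did not pass in the shared range (-1.88, adjusted p = 0.288). Pigr, which carries IgA to the lumen, was at 0.01 ± 0.13 (adjusted p = 0.972).

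Paneth cell genes fell in 10 of 18 cases and 1 rose, with a median of -0.92. Mptx2, a mucosal pentraxin, lay between 102 and 266 CPM (median 182) and between 3.02 and 159.7 CPM (median 28.1; -1.95 ± 0.45, adjusted p = 0.000814). Defa29, an alpha-defensin among near-identical copies, was at -1.96 ± 0.50 (adjusted p = 0.00243), and Lyz1, lysozyme, at -0.47 ± 0.27 (adjusted p = 0.196). The mean log2 level of the list spread from 6.55 to 8.46 at FAT-20 and from 3.804 to 8.20 at FAT-55, with the lowest in replicate 6, which also had the lowest smooth muscle score, 4.46. With both scores 1 rose and 1 fell, and in the shared range none passed and the median was 0.38. Of 12 goblet cell genes 2 fell, Muc2, the mucus gel protein, among them (-0.61 ± 0.14, adjusted p = 0.000626). Of 15 stem cell genes 3 fell, among them Lgr5 (-0.58 ± 0.16, adjusted p = 0.00598), and of 23 division genes 1 rose and 3 fell. The goblet, stem and division counts are small and lie near the share of all genes that fell, 13.3%. Muc2 and Lgr5 missed the threshold with both scores (adjusted p = 0.15 and 0.143).

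Genes of plasma cells, the makers of secreted antibody, were lower. Of 18 B and plasma cell genes 6 fell and 0 rose, 5 fell with both scores and 4 in the shared range, although the list's median was 0.29. Igha, the heavy chain of IgA, lay between 3349 and 11531 CPM (median 7262) and between 519.7 and 7037 CPM (median 3346). All FAT-55 libraries were below the FAT-20 median (-0.97 ± 0.21, adjusted p = 0.000361; -1.04, adjusted p = 0.0132, in the shared range), and Igkc, the kappa light chain, followed (-0.91 ± 0.20, adjusted p = 0.000558). Derl3, a degradation factor of secretory cells, fell by 1.22 (adjusted p = 4.62e-06) and by 1.37 in the shared range (adjusted p = 0.00167). Ighm, of naive B cells, ran from 13.2 to 216 and from 12.4 to 240.2 CPM (0.48 ± 0.45, adjusted p = 0.449). Of 23 T cell genes none was called without covariates and 2 fell with both scores.

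Of 18 chaperones of the endoplasmic reticulum 9 fell and 0 rose (median -0.23), 5 with both scores and 3 in the shared range. The 3 were Hyou1 (-0.51 ± 0.14, adjusted p = 0.00348), Pdia4 (-0.46 ± 0.12, adjusted p = 0.00264) and Xbp1, the factor that drives secretory capacity (-0.27 ± 0.07, adjusted p = 0.00191). Of 10 MHC class II genes 6 fell (median -0.52), with H2-DMb1, which loads peptides, at -0.82 ± 0.25 (adjusted p = 0.0101), but none was called with both scores. Of 41 interferon response genes 3 rose and 1 fell.

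Hormone genes of enteroendocrine cells rose in 11 of 21 cases and 1 fell (median 0.40), and 5 rose with both scores. Gip, an incretin released on fat and sugar, lay between 45.9 and 90.5 CPM (median 60) and between 80.4 and 156 CPM (median 92.4). Each FAT-55 library was above the FAT-20 median (0.64 ± 0.11, adjusted p = 2.16e-05). Sct, secretin, rose by 0.53 ± 0.10 (adjusted p = 0.000133), Chga, a granule protein of these cells, by 0.49 ± 0.08 (adjusted p = 1.4e-05), and Ghrl, ghrelin, by 0.85 ± 0.19 (adjusted p = 0.000624). Ghrl missed the threshold with both scores (0.59, adjusted p = 0.12). Of 12 immediate early genes 5 rose, with Egr1 from a median of 8.43 to 25.9 CPM (1.77 ± 0.42, adjusted p = 0.00117), and none was called with both scores.

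The values of 34 genes (0.2% of those tested) did not overlap between the groups, 28 higher (0.165%) and 6 lower (0.0353%) at FAT-55. Mir194-1, whose hairpin is shown above, had the smallest adjusted p. Its 67 bases collected 3 to 21 reads per library at FAT-20 and 50 to 104 at FAT-55, or 0.128 to 0.872 CPM (median 0.301) and 2.19 to 4.99 CPM (median 2.9). All FAT-55 libraries lay above all FAT-20 libraries, and the rise of 3.15 ± 0.30 (adjusted p = 9.91e-12) was 3.30 with both scores and 3.31 in the shared range. The antisense gene around it, 2010103J01Rik, rose by 1.17 ± 0.22 (adjusted p = 5.02e-05), and Iars2 on the other strand did not pass (-0.14 ± 0.06, adjusted p = 0.0863), except without FAT-20 replicate 2 or 3 or FAT-55 replicate 11 (adjusted p = 0.0232 to 0.0449). Both, like Mir215, were named after their values were seen. Mir215, the microRNA next to it, had 0 reads in all 70 jejunal libraries. Reads of total RNA over so short a gene do not tell the mature microRNA from its precursor or host transcript, the strand setting is not given in the sources used here, and Mir194-2 on chromosome 19 yields the same mature 5p arm.

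Tm4sf4, a 4-span membrane protein of intestine and liver (ENSMUSG00000027801, chromosome 3, 57425314 to 57441677), lay between 47.5 and 92.3 CPM (median 61.6) and between 150.4 and 417 CPM (median 252; 1.96 ± 0.22, adjusted p = 2e-09). It kept a gap also among the libraries with like smooth muscle scores (1.82, adjusted p = 0.00167). Anxa13, an annexin of the intestinal epithelium, rose by 0.69 ± 0.09 (adjusted p = 2.78e-08), Tinag, a basement membrane protein, by 0.63 ± 0.07 (adjusted p = 4.84e-10), Acat1, the mitochondrial thiolase of ketone metabolism, by 0.57 ± 0.07 (adjusted p = 1.84e-08), and Ahcy, which clears adenosylhomocysteine, by 0.60 ± 0.08 (adjusted p = 1.02e-07). 1700016C15Rik rose from a median of 2.48 to 11.8 CPM (2.22 ± 0.23, adjusted p = 3.77e-10). Npl, the lyase that breaks down sialic acid, was lower in every library, with 24.4 to 95.8 against 7.75 to 21.3 CPM (-2.09 ± 0.28, adjusted p = 1.35e-07). Of the 16992 genes tested, 85 were called in the main comparison, in each of 13 alternatives and without each of the 22 libraries. They were 30 higher and 55 lower. Mir194-1, Tm4sf4, Anxa13, Tinag, Flvcr2, S100g and Isx are among the 30, and Bco1 and Derl3 among the 55. Every immunoglobulin gene among the 85 was lower, Igha and Igkc included.

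The middle fat level gave 4264 calls against the same FAT-20 libraries (25.1%; 12.7% higher and 12.4% lower). There Cd36 stood at 0.66 and Me1 at 1.36 where FAT-55 gave 1.03 and 2.003, Apoa4 at 0.96 against 0.97, Saa1 at -5.25 against -5.35 and Mir194-1 at 2.90 against 3.15. Of the 75 respiratory genes 22 rose at FAT-40, with a median of 0.15. On WPI, which shares no library with CAS, FAT-55 against FAT-20 called 5231 genes (30.8%; 14.2% higher and 16.6% lower), with Cd36 at 1.117 ± 0.16, Me1 at 1.69 ± 0.24, Mir194-1 at 2.82 ± 0.28, Tm4sf4 at 1.46 ± 0.21, Bco1 at -2.10 ± 0.50 and Isx at 0.26 ± 0.11 (adjusted p = 0.0582). Of the same respiratory genes 29 rose on WPI (median 0.16). On WPI Saa1 lay between 0 and 2.68 CPM at FAT-20 and between 0 and 0.0947 CPM at FAT-55. Apoa4 lay between 428.3 and 3687 CPM at FAT-20 and between 2563 and 5811 CPM at FAT-55 on WPI. No gene passed the test that the response differed between the proteins (1016 at an unadjusted p under 0.05, 6 by DESeq2), so none can be called particular to CAS.

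In the livers of the same 22 mice, FAT-55 against FAT-20 called 6520 of 15051 genes (43.3%; 22.6% higher and 20.7% lower), and the difference between the tissues, tested per mouse with limma, was called for 5519 of 13066 genes (42.2%). Tissues were paired by the mouse identifier, the library number was the same in both tissues for 21 of the 22 mice, and without the other mouse 5112 genes were called. Of the 13066 genes, 1055 were called in both tissues in opposite directions with a called difference, 497 of them higher in jejunum. Another 759 moved the same way. Oxidation genes were among those that parted. In liver 12 of 22 peroxisomal genes fell and 1 rose, 14 of 27 mitochondrial genes fell and 3 rose, and the jejunal response was the higher for 17 of 19 and 19 of 27, against 21.4% of all genes. By that test Cyp4a10 changed by 2.77 in jejunum and -1.62 in liver (difference 4.39, adjusted p = 1.33e-05), and Crot by 0.82 and -0.38 (difference 1.19, adjusted p = 7.39e-06). Of the 75 respiratory genes 2 rose and 21 fell in liver.

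Retsat, too, was higher in jejunum and lower in liver (difference 2.63, adjusted p = 4.57e-08). Cd36 rose more in liver than in jejunum (2.49 and 1.08, difference -1.41, adjusted p = 0.000344), as did Apoa4 (2.05 and 0.99, difference -1.06, adjusted p = 0.00734). By edgeR Bco1 stood at -0.01 in liver (adjusted p = 0.957) and its difference by limma was called (-3.34, adjusted p = 0.000182), and Saa1 was at 0.02 in liver by edgeR (adjusted p = 0.983). Fat cell markers moved the other way in liver, where 2 of 3 tested rose, and their part in the tissue difference was not tested.

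**Figure D5:**
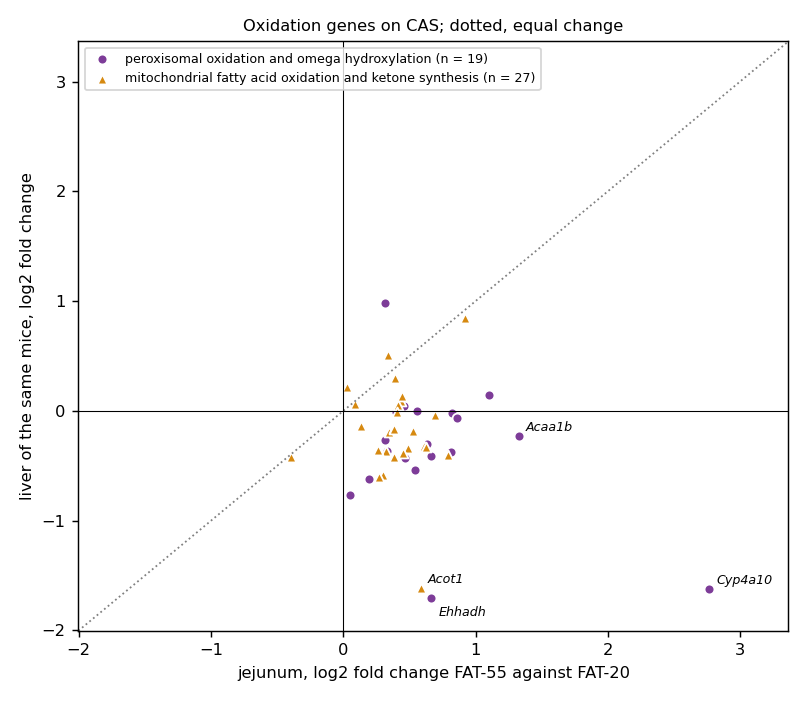
The log2 fold change of FAT-55 against FAT-20 in jejunum (x axis) against liver of the same 22 mice (y axis) for 19 peroxisomal and 27 mitochondrial oxidation genes. Points below the dotted line have the higher signed value in jejunum, as for Cyp4a10 at 2.77 and -1.62.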

How the data were processed

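Per the submitters' processing notes, reads were trimmed with cutadapt and Trim Galore 0.61, aligned with STAR to GRCm38 and checked with FastQC, and DESeq2 1.24.0 is also named. The order of steps, annotation release and strand setting are not given in the sources used here. The authors deposited raw counts per gene (55536 genes, 70 libraries each for jejunum and liver). Entries that name no gene, 21.3% to 24.2% of each of the 22 libraries, were left out.

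Groups follow the diet labels. Genes passing filterByExpr (minimum count 10, total 15) were scaled by TMM and tested with edgeR 4.0.16 (R 4.3.3) quasi-likelihood tests, with 1 coefficient per diet over the 70 jejunum libraries and Benjamini-Hochberg adjustment. Counting error is wide for genes of few reads, such as Mir194-1 at FAT-20. The tissue test used limma 3.58.1 on log2 CPM (prior count 2), jejunum minus liver per mouse. The edgeR test of the main comparison was run on simulated counts with known folds. Those counts held no identifier stem effect and no shift in marker scores, so the check covers neither. Mice are taken as separate from their identifiers.

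Members and lists were chosen with earlier results of these data known, so no list was tested as a set. Genes named in the text follow a rule: 4 reference genes, the 10 largest changes per direction with at least 5 CPM, leading, opposing and abundant members of each list, and genes without overlap. Others are marked. Alternatives were DESeq2 1.42.0, scaling, filter, libraries fitted, identifier stems, quality weights, marker scores, a fold of 1.2, leaving out each library and, added after the scores were seen, the shared smooth muscle range. Names and coordinates are from GENCODE M21, promoters and microRNAs from RefSeq.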

Additional observations from a re-analysis of the deposited data

Results flagged for a closer look

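The response to FAT-55 differed between jejunum and liver of the same mice for 5519 of 13066 genes by limma (42.2%). Called in each tissue in opposite directions with a called difference were 1055 of the 13066. Those given here were picked because they are named above. In log2 units, jejunum minus liver, oxidation and lipid handling genes differed by 4.39 (Cyp4a10), 1.194 (Crot), 0.8353 (Acadvl), 1.426 (Fabp1) and 1.7 (Ces2a). Retinoid and other metabolic genes differed by 2.627 (Retsat), 1.437 (Rdh7), 2.827 (Ugt2b5) and 0.958 (Ahcy), and the immediate early gene Egr1 by 2.808. Lower in jejunum and higher in liver were Lpl (-2.049), Scd1 (-2.682), Vldlr (-2.952), Derl3 (-2.771), H2-DMb1 (-1.519), Lgr5 (-1.054) and Npl (-2.398). Lpl and Scd1 change sign in jejunum with the fat cell score as covariate.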

How the results depend on the processing

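Without each library in turn, the comparison called 3805 to 5443 genes against 4711. It called 826 with the fat cell score, 1604 with the smooth muscle score, 1028 with both, 1173 with a B cell score added, 914 against a fold of 1.2 and 236 in the shared smooth muscle range. DESeq2, other scaling, no filter, the 22 libraries alone, stems and quality weights gave 3383 to 5998. FAT-40 against FAT-20 gave 139 with both scores and 2121 with sums per stem, against 4264. FAT-55 against FAT-40 gave 16 by DESeq2, 3 without a filter, 3 with both scores and 0 with sums per stem, against 5. On WPI the count was 219 with both scores and 3411 with sums per stem, against 5231. The difference between the proteins called 6 genes by DESeq2 against 0, and that between tissues 3392 with sums per stem against 5519. Of 117 genes named, 30 lost their call with both scores, 79 in the shared range, 27 against a fold of 1.2 and 6 with sums per stem, and none did with DESeq2. Lpl reversed to 1.417, 1.415 and 1.41 with the fat cell score alone, with smooth muscle and with B cells added, and to 0.28 in the shared range, and Scd1 to 1.048, 1.046 and 0.9725 with those 3 sets of scores. Fewer libraries enter the shared range, and the cause of the other losses was not tested. For FAT-55 against FAT-20, no paired analysis was possible, because the mice of the diets are separate animals by their identifiers. The labels carry no replicate numbers in jejunum, and those in the text follow the order of the samples within a group. Only the test between jejunum and liver was paired, by the mouse identifier.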

Other observations

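Several genes outside the lists were called in every alternative and without each library, and were named here after their values were seen. Egln3, an oxygen-dependent prolyl hydroxylase, lay between 42 and 108 CPM at FAT-20 and between 84.1 and 158 CPM at FAT-55 (0.92 ± 0.14, adjusted p = 3.66e-06 by edgeR), and stood at 1.198 in the shared smooth muscle range. Areg, the growth factor amphiregulin, went from a median of 1.98 to 7.06 CPM (1.97 ± 0.31, adjusted p = 3.87e-06), and Gpx1, a selenium-dependent glutathione peroxidase, from 218 to 308 CPM (0.47 ± 0.07, adjusted p = 4.11e-07). Igf2bp2, an mRNA-binding protein, was lower, with 30.1 to 46.5 CPM against 20.4 to 30.6 CPM (-0.73 ± 0.08, adjusted p = 4.84e-10). On WPI the medians of Areg at FAT-20 and FAT-55 were 1.95 and 3.39 CPM, and the difference between the proteins did not pass (-1.15, adjusted p = 0.62).

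B4galnt4, an N-acetylgalactosaminyltransferase also named after its values were seen, did not overlap between the groups, with 20.6 to 31.9 CPM at FAT-20 and 11 to 18.2 CPM at FAT-55 (-0.90 ± 0.13, adjusted p = 4.11e-07). It did not pass in the shared range (-0.64, adjusted p = 0.0693). Pla2g4c, a phospholipase, lay between 0.602 and 111 CPM at FAT-20 and between 1.2 and 122 CPM at FAT-55, and was called only without FAT-20 replicate 5 (2.64, adjusted p = 0.00132) or in the shared range (4.71, adjusted p = 0.000455). Ighv3-4, a heavy chain segment with near-identical copies, lay between 0 and 1.395 CPM at FAT-20 and between 0 and 244 CPM at FAT-55 (adjusted p = 1.99e-05). Its fitted difference of 6.78 was 4.86 without FAT-55 replicate 7 and 7.57 without FAT-20 replicate 8, and it did not pass with both scores (adjusted p = 0.105).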
